A study of Mus musculus with 2 samples.

Results

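Genes of eicosanoid metabolism were followed across the white blood cells of the recovering mouse colon: Ptgs1, Ptgs2, Ptges, Ptges2 and Hpgds, which make prostaglandins, Ptger2 and Ptger4, which receive prostaglandin E2, and Alox5, Alox5ap and Ltc4s, which make leukotrienes. They were taken by name, 10 of the 32285 genes in the count tables, and all 10 were found, each under 1 identifier. C57BL/6 mice 8 weeks of age had drunk 2.0% dextran sulphate sodium (DSS), a polymer that injures the colon epithelium, for 7 days and plain water for 7 days, and live cells carrying the leukocyte surface protein CD45 were sorted from the colon lamina propria on day 14. One group is wild type and the other carries an E4BP4 transgene that the series describes as macrophage-specific. The labels name neither its promoter nor the number of mice behind a library. E4BP4, encoded by Nfil3, is a basic leucine zipper transcription factor. Each genotype is 1 library, so no difference could be tested and no spread between animals is known. The intervals below are 95% intervals that cover counting error only.

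Eicosanoids are short-lived lipid signals made from arachidonic acid that phospholipases cut from membranes. The cyclooxygenases Ptgs1 (COX-1, present in many resting cells) and Ptgs2 (COX-2, induced by inflammatory stimuli) make prostaglandin H2, which Ptges and Ptges2 turn into prostaglandin E2 and Hpgds into prostaglandin D2. Ptger2 and Ptger4 are G protein-coupled receptors (EP2 and EP4) that raise cyclic AMP when prostaglandin E2 binds. In the other branch Alox5 (5-lipoxygenase), helped by the membrane protein Alox5ap (FLAP), makes leukotriene A4, from which Ltc4s makes leukotriene C4 and Lta4h makes leukotriene B4, an attractant of neutrophils. In the gut, prostaglandin E2 is known for its part in epithelial repair and leukotriene B4 for recruiting granulocytes.

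The deposited cells number 6466 in the wild type library and 7026 in the library labelled transgenic, with 20511285 and 19962473 UMIs (counted molecules) and medians of 2700 and 2427.5 UMIs per cell. The libraries share 142 barcodes, 67 of them among the deposited cells of both. Levels are CPM, the gene's UMIs summed over cells and scaled to 1000000 UMIs. A ratio is the CPM in the library labelled transgenic over that in the wild type library. Higher and lower are used as calls for genes with 20 or more UMIs in the libraries together whose CPM differed by 1.5-fold or more. Macrophage-like cells of the library labelled transgenic did not have more Nfil3 itself, with 73.8 CPM against 84.4 CPM in wild type (ratio 0.874, 0.724 to 1.06), so every direction below rests on the labels. The 10 coarser deposited clusters were named from marker genes. Their 15 finer counterparts are called here by a leading gene (C1q, Chil3, Arg1, S100a9 and so on). Neutrophil-like cells made up 648 cells of the wild type library and 167 of the other, and the finer Arg1 cluster, led by Arg1, Saa3 and Nos2, 217 and 51. Neutrophil marker transcripts were also lower in other clusters of the library labelled transgenic: the 10 markers summed to 28.2 CPM in its B-like cells against 508 CPM in wild type B-like cells.

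The members lie on 7 chromosomes in GRCm38: Ptgs2 at chr1:150100031-150108227, Ptgs1 at chr2:36230426-36252272, Ptges at chr2:30889471-30929863, Ptges2 at chr2:32395896-32405772, Alox5ap at chr5:149264767-149288153, Hpgds at chr6:65117293-65144908, Alox5 at chr6:116410077-116461178, Ltc4s at chr11:50236461-50238616, Ptger2 at chr14:44988195-45003820 and Ptger4 at chr15:5206661-5244187. RefSeq promoters (GRCm38.p6) matched 9 of the 10, all except Alox5ap. The 250 bases before the start site are shown for Ptgs2 and Ptges, since their cellular patterns carry most of the results. The Ptgs2 region is chr1:150099781-150100030 on the plus strand, where the annotation places an exon of the antisense transcript Ptgs2os. Capitals mark TTGCGCAA, a palindromic site for C/EBP factors, at -69 to -62 from the start site. The Ptges region is chr2:30903298-30903547 on the minus strand, inside an intron of a longer Ptges transcript, and its capitals mark GGGCGG, the Sp/KLF box, at -53 to -48 and -42 to -37.
Ptgs2: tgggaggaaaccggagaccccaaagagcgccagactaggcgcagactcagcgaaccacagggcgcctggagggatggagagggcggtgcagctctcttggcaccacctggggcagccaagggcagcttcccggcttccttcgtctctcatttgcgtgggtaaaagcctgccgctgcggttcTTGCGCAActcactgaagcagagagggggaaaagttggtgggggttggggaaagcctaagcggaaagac
Ptges: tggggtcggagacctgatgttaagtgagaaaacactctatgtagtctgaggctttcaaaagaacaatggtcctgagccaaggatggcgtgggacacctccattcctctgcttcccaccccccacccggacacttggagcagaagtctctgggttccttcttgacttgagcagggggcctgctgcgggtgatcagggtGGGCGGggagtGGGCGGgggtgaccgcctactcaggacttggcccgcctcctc
On either strand TTGCGCAA was found in 1 of the 9 upstream regions and in 0.164% of all 32851 RefSeq promoters of the same length, and GGGCGG in 4 of 9 (Ptgs2, Ptges, Ptger4 and Alox5) and in 32.7%. The E4BP4 sites TTATGTAA and TTACGTAA had 0 matches in the 9 regions, and 0.819% and 0.113% of all promoters hold them. No match says only that these letters are not in these windows.

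The 3 members whose UMIs lay mostly in macrophage-like cells, Ptgs1, Hpgds and Ltc4s, have the letters AGGAAGT, a core bound by the myeloid factor PU.1, upstream of the start site, against 7.69% of all promoters. This motif was searched after the letters had been seen, and a match is a description, not a site. The windows of 30 bases are chr2:36230392-36230421 (plus strand, match at -23 to -17) for Ptgs1, chr6:65144760-65144789 (minus strand, -48 to -42, inside an annotated UTR of Hpgds) for Hpgds and chr11:50238631-50238660 (minus strand, -117 to -111, within the Gm26542 transcript) for Ltc4s. A further window of Ptgs2, chr1:150100033-150100062 on the plus strand in its 5′ UTR, is given because it holds the core of the cyclic AMP response element (TGACG, here as CGTCA at 14 to 18) overlapping the E-box CACGTG (17 to 22). Of all 300-base promoters, 20.8% hold TGACG and 7.15% hold CACGTG. Capitals mark the matches.
Ptgs1: ggctggagcagAGGAAGTtggcggtcagcc
Hpgds: cttttaggtggAGGAAGTggcctctggctg
Ltc4s: gaacaactggaAGGAAGTggtcaagctgtc
Ptgs2 leader: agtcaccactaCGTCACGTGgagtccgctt

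**Figure D1:**
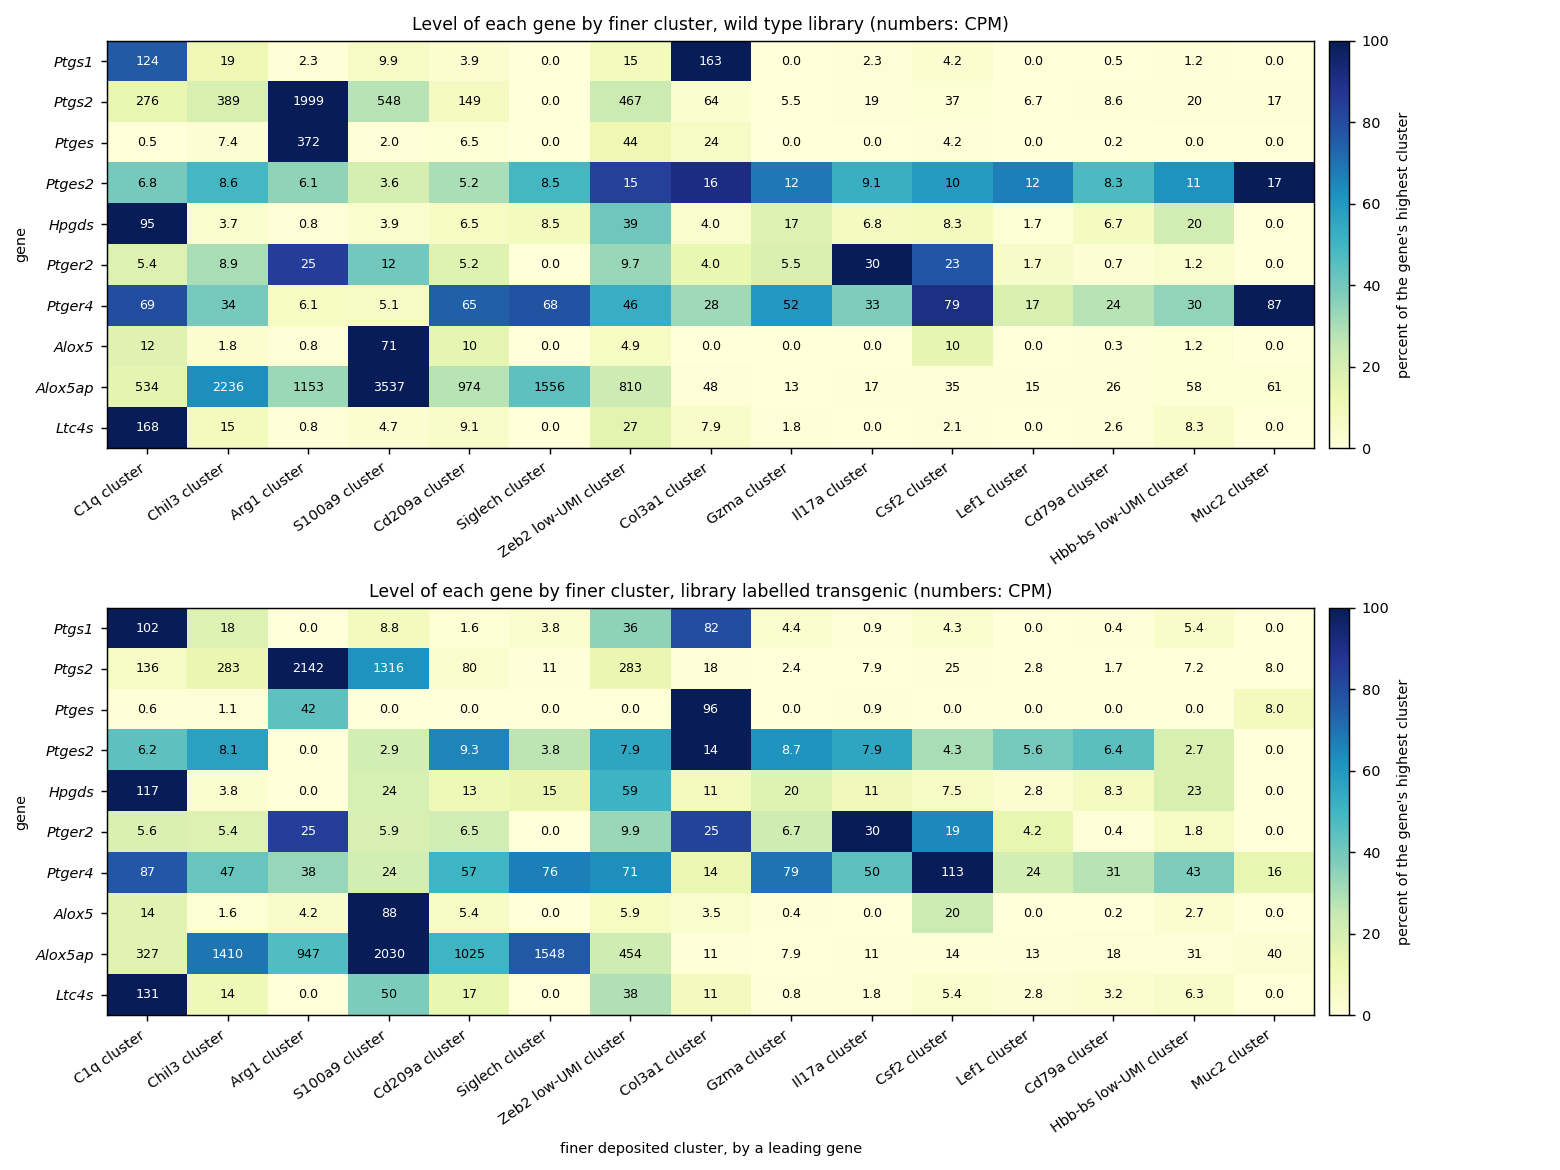
Level of each of the 10 genes (rows) in the 15 finer deposited clusters (columns) of the wild type library (top) and the library labelled transgenic (bottom), with CPM as numbers and the percent of the gene's highest cluster in that library as colour. Hpgds and Ltc4s are darkest in the C1q cluster, Alox5 in the S100a9 cluster and Ptgs2 in the Arg1 cluster of both libraries, while Ptges is darkest in the Arg1 cluster at the top and in the Col3a1 cluster at the bottom.

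Ptgs2 lay mostly in monocyte-like, neutrophil-like and macrophage-like cells, and its level was highest in 1 small cluster. In the wild type library the Arg1 cluster, 3.36% of the cells, held 41.9% of all Ptgs2 UMIs, the S100a9 cluster (the neutrophil-like cells) 22.1%, the Chil3 cluster, the bulk of the monocyte-like cells, 20.1% and the C1q cluster (macrophages) 9.004%. In the library labelled transgenic these shares were 22.2% in 0.726% of the cells, 19.5%, 22.8% and 20.1%. The Arg1 cluster thus held a far larger share of Ptgs2 than of cells in both libraries.

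The level in the Arg1 cluster was 1999 CPM in wild type (2641 UMIs) and 2142 CPM in the library labelled transgenic (511 UMIs), the highest of the 15 finer clusters in each. The ratio of 1.07 (0.973 to 1.18) was within 1.5-fold, and 5 cells gave 44.2% of the UMIs in the library labelled transgenic. Against the Chil3 cluster of the same library, Ptgs2 was 5.14-fold higher in wild type (389 CPM in the Chil3 cluster) and 7.57-fold higher in the library labelled transgenic (283 CPM). A Ptgs2 UMI was found in 91.7% of wild type Arg1-cluster cells and 72.5% of those in the library labelled transgenic, with medians of 6400 and 4615 UMIs. B-like cells, the comparison for free RNA, held one in 2.53% and 0.447%, at medians of 2445 and 2235 UMIs. Thinned to 1000 UMIs per cell, which left out 1 and 0 cells, the shares in the Arg1 cluster were 70.9% and 56.7%.

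Among the coarser clusters Ptgs2 differed between the libraries in opposite directions. In macrophage-like cells wild type had 742 UMIs (329.5 CPM) and the library labelled transgenic 551 UMIs (149 CPM), which is 0.454-fold (0.405 to 0.507). Monocyte-like cells held 3675 UMIs (817 CPM) and 1002 UMIs (463 CPM), a ratio of 0.567 (0.528 to 0.608). In both classes the library labelled transgenic was the lower one, and neutrophil markers were too (2394 and 245 CPM in monocyte-like cells), whose part was not tested. In monocyte-like cells the call ended without the Arg1 cluster, where the ratio was 0.695, and in the Chil3 cluster alone it was 0.728 (0.656 to 0.807). The Arg1 cluster was thus the place of much of the wild type total but had no called difference of its own.

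In neutrophil-like cells Ptgs2 was higher in the library labelled transgenic, at 442 UMIs (1338 CPM) against 1387 UMIs (548 CPM) in wild type, a ratio of 2.44 (2.19 to 2.72). A UMI was found in 74.3% and 52.0% of cells, and in 58.9% and 30.6% after thinning to 1000 UMIs, which left out 13 and 64 cells. The 10 neutrophil markers summed to 252818 CPM in wild type and 105550 CPM in the other library, the median log2 ratio over all genes tested in this class was 0.68, and macrophage markers summed to 718 and 2342 CPM. The part of these in the Ptgs2 ratio was not tested. With median-of-ratios scaling, which brings that median to 0.04, the ratio was 1.57.

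Ptgs2 counts were low in lymphocytes. B-like cells held 63 UMIs (9.98 CPM) in wild type and 10 UMIs (1.85 CPM) in the other library, a ratio of 0.185 (0.0846 to 0.363). The wild type level was 0.499% of that in the Arg1 cluster, the neutrophil markers in the same cells had a ratio of 0.0556, and the part of free RNA was not tested. T-like cells had 16 and 17 UMIs (9.10 and 6.37 CPM), within 1.5-fold, and the counting interval of the ratio ran from 0.333 to 1.48. Dendritic-like cells had 26 UMIs (37.6 CPM) in wild type and 86 UMIs (53.9 CPM) in the other library. Their ratio, 1.43, was within 1.5-fold (0.915 to 2.32). The finer Cd209a cluster, which is larger than the dendritic-like cluster and also carries mast cell genes, had 115 and 147 UMIs and a ratio of 0.536 (0.417 to 0.691), so the direction depended on the cells taken. Fibroblast-like cells had 16 and 5 UMIs (63.5 and 17.2 CPM), and 93.8% of the former came from 5 cells.

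Ptgs1, the other cyclooxygenase, lay in different cells. Macrophage-like cells held 65.4% (60.5% to 70.1%) of its UMIs in wild type and 80.3% (76.3% to 83.8%) in the library labelled transgenic, with 263 UMIs (117 CPM) and 362 UMIs (98.2 CPM). The ratio of 0.841 (0.715 to 0.989) was within 1.5-fold. Of macrophage-like cells 26.2% and 21.9% held a UMI, at medians of 3151 and 3082 UMIs, and of B-like cells 0.166% and 0.179%. Fibroblast-like cells, few as they were, had levels as high: 42 UMIs (167 CPM) in wild type and 23 UMIs (79.2 CPM) in the other library, a ratio of 0.475 (0.273 to 0.808). The call ended when barcodes above the gene-number limit were added (0.955), and endothelial markers in this cluster, which were raised with the fibroblast markers, summed to 1831 and 841 CPM.

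**Figure D2:**
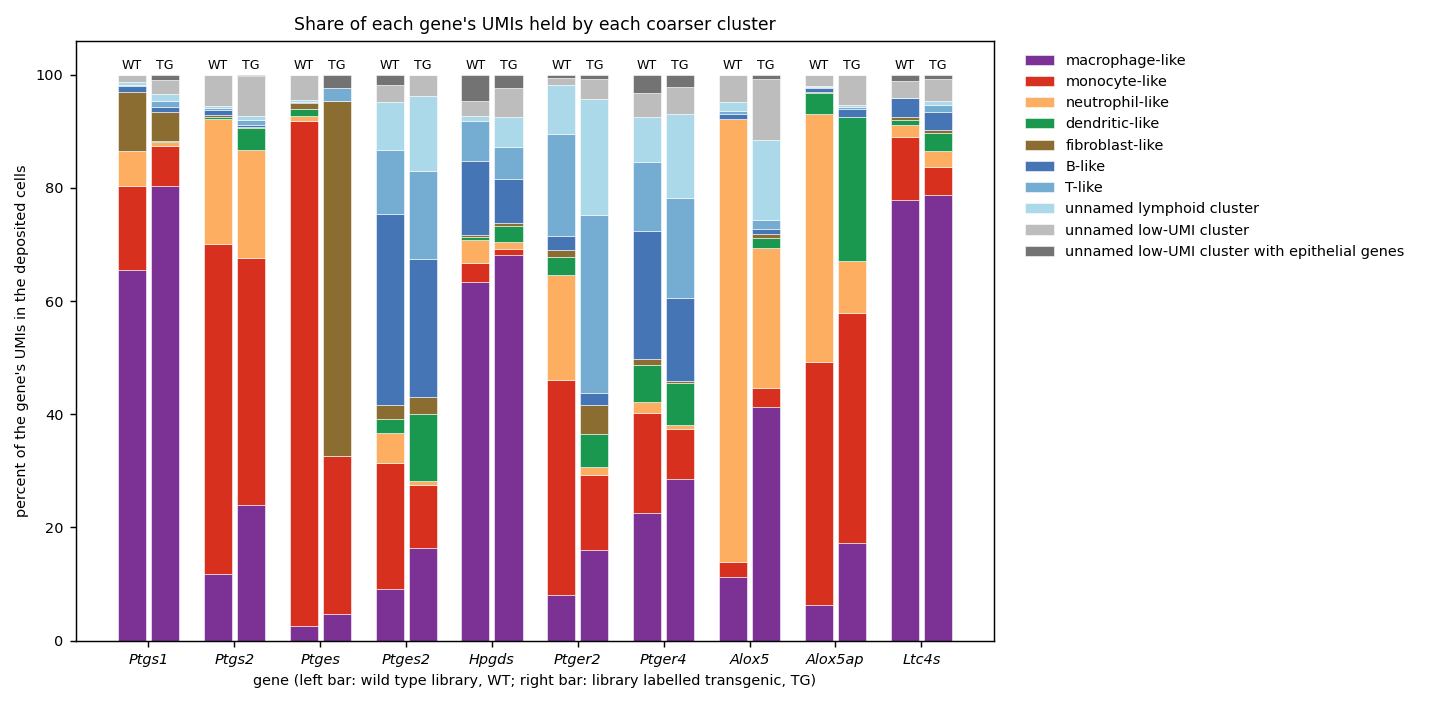
Stacked bars give the percent of each gene's UMIs held by each of the 10 coarser clusters, for the wild type library (left bar of a pair) and the library labelled transgenic (right bar). Macrophage-like cells hold most of Ptgs1, Hpgds and Ltc4s in both bars, while neutrophil-like cells hold 78.4% of Alox5 in wild type and 24.8% in the other library.

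Ptges, the inducible synthase that works with Ptgs2, lay mostly in 1 cluster of wild type and had the lowest ratio of the 10 over all deposited cells. In wild type 88.8% of its 554 UMIs were in the Arg1 cluster, where 88 of 217 cells held one. The library labelled transgenic had 43 UMIs in all, of which 23.3% were in the Arg1 cluster and 62.8% in the Col3a1 cluster of fibroblasts. Ptges is among the 10 leading genes of the Arg1 cluster, so its place there is a description.

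Arg1-cluster cells held 492 UMIs (372 CPM) in wild type and 10 UMIs (41.9 CPM) in the library labelled transgenic (0.113, 0.0536 to 0.209). In the same cells Ptgs2, as given above, was within 1.5-fold. The Chil3 cluster had 24 UMIs (7.38 CPM) and 2 UMIs (1.08 CPM). Over monocyte-like cells as a whole the 495 and 12 UMIs gave 110.0 and 5.54 CPM and a ratio of 0.0504 (0.0259 to 0.0888), which was 0.128 without the Arg1 cluster. With 51 cells of the Arg1 cluster in the library labelled transgenic, 4 of them with a UMI, the lower value rests on few cells. Neutrophil markers in the Arg1 cluster summed to 3324 CPM in wild type and 260 CPM in the other library, and their part in the ratio was not tested.

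Fibroblast-like cells went the other way. They held 6 Ptges UMIs (23.8 CPM) in wild type and 27 UMIs (93.0 CPM) in the library labelled transgenic (3.90, 1.58 to 11.6), with a UMI in 19 cells (17.8%) of the latter. The ratio was 2.07 once barcodes above the gene-number limit were added. Fibroblasts are known to lack CD45, on which the sort was made.

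Ptges2, a synthase expressed widely, showed no such place. Its levels in coarser clusters with 20 UMIs lay between 5.78 and 11.05 CPM in wild type and between 5.97 and 10.0 CPM in the library labelled transgenic. B-like cells, the most numerous, held 33.7% and 24.4% of its UMIs. Over all deposited cells it had 166 and 135 UMIs and a ratio of 0.836 (0.661 to 1.06).

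Hpgds, the prostaglandin D2 synthase of blood cells, followed the macrophages. Macrophage-like cells held 63.4% of its UMIs in wild type and 68.2% in the other library, with 208 UMIs (92.4 CPM) and 414 UMIs (112 CPM), a ratio of 1.22 (1.03 to 1.44). Of macrophage-like cells 23.2% and 26.6% held a UMI, and of B-like cells 1.54% and 1.92%. In the Chil3 cluster the level was 3.69 CPM in wild type and 3.78 CPM in the library labelled transgenic. In wild type, then, Hpgds was highest in the C1q cluster and Ptges in the Arg1 cluster, and both were low in the Chil3 cluster. The Gzma cluster of T cells had 17.4 and 20.2 CPM, which is 18.3% and 17.3% of the level in the C1q cluster.

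**Figure D3:**
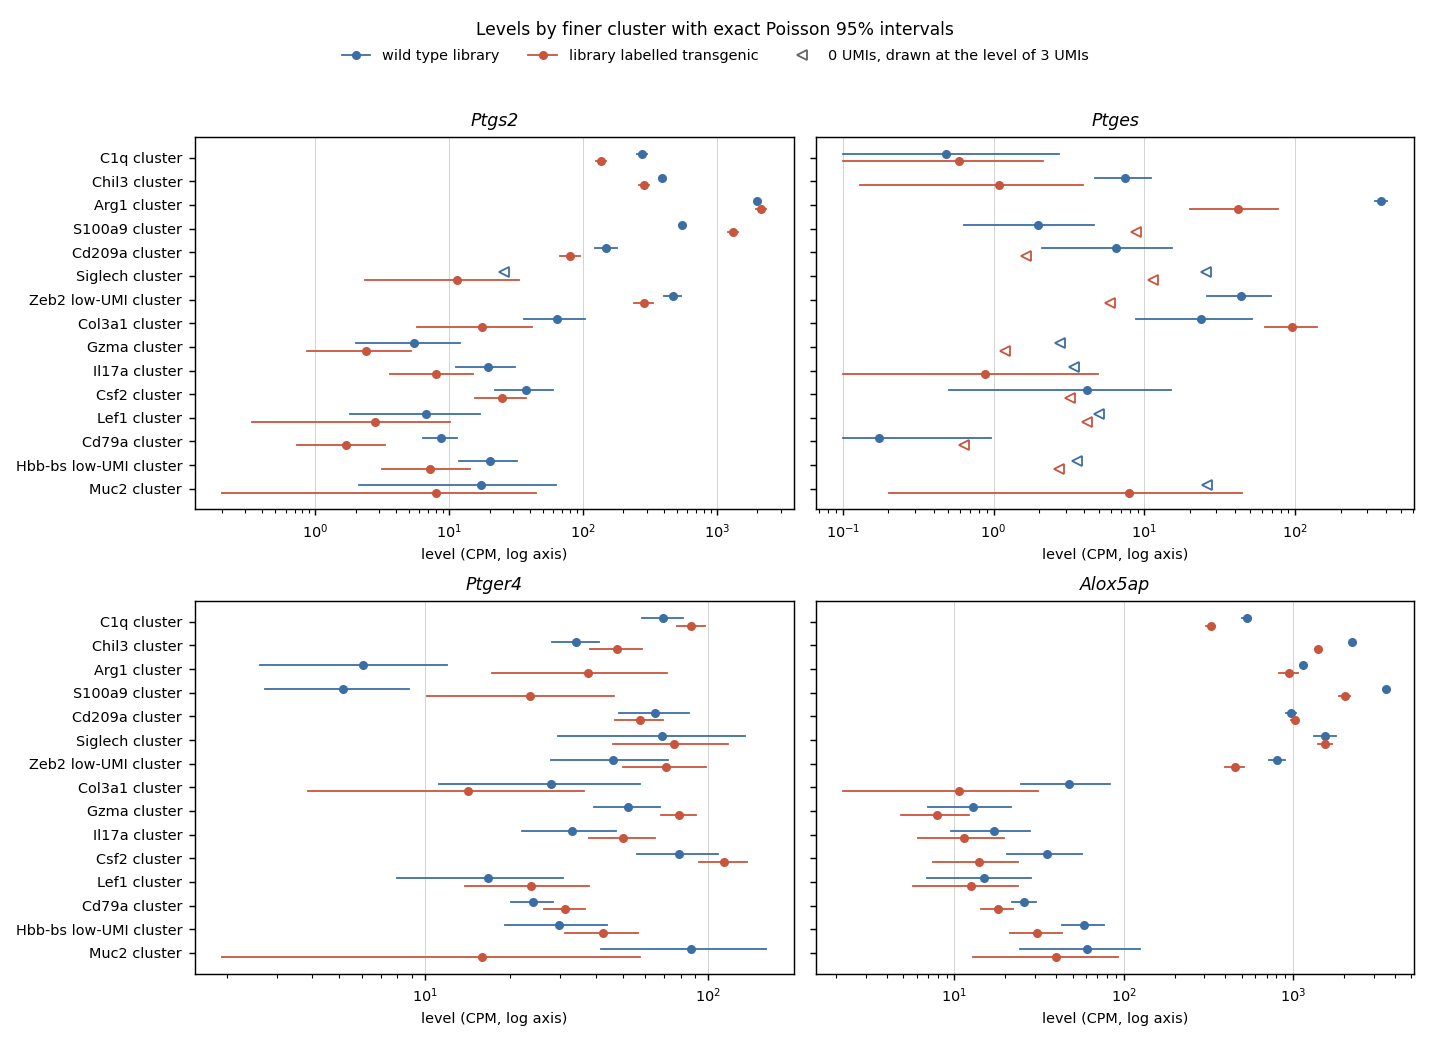
Levels of Ptgs2, Ptges, Ptger4 and Alox5ap (log axis, CPM) in the 15 finer clusters of the wild type library (blue) and the library labelled transgenic (red), with exact Poisson 95% intervals as bars and open triangles for 0 UMIs, drawn at the level of 3 UMIs. Ptgs2 in the Arg1 cluster is 1999 and 2142 CPM, Ptges in the same cells 372 and 41.9 CPM, and the red points for Ptger4 lie to the right of the blue in most clusters.

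Ptger4, the EP4 receptor, was spread over most cell types and had ratios above 1 in 8 of the 9 coarser clusters with 20 UMIs. T-like cells held 81 UMIs (46.1 CPM) in wild type and 202 UMIs (75.7 CPM) in the other library, 1.64-fold (1.26 to 2.15). A UMI was found in 12.97% and 21.5% of T-like cells, or 4.72% and 7.49% after thinning, and in 5.98% and 7.02% of B-like cells. Monocyte-like cells had 118 UMIs (26.2 CPM) and 102 UMIs (47.1 CPM), a ratio of 1.80 (1.36 to 2.36), which was 1.41 without the Arg1 cluster and so no longer called.

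Ratios above 1 were seen elsewhere too. The largest was in neutrophil-like cells, on 13 and 8 UMIs (5.13 and 24.2 CPM, 4.72, 1.70 to 12.3). There 5 cells held 87.5% of the UMIs in the library labelled transgenic, and the median log2 ratio over all genes was 0.68. Macrophage-like cells had 66.6 and 87.9 CPM (ratio 1.32, 1.08 to 1.61) and B-like cells 23.9 and 30.8 CPM (1.29, 1.03 to 1.62). In the unnamed lymphoid cluster the levels were 41.8 and 64.1 CPM (1.53, 1.12 to 2.13). Dendritic-like cells were the exception among the named classes with enough UMIs, at 62.2 and 52.0 CPM (0.836, 0.572 to 1.24). The highest level of a cluster with more than 100 cells in each library was that of the finer Csf2 cluster, led by Csf2, Calca and Il22, at 78.9 and 113 CPM. The Arg1 and S100a9 clusters of wild type had the lowest levels in myeloid cells, 6.05 and 5.13 CPM.

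Ptger2, the EP2 receptor, was scarce, with 161 UMIs in wild type and 137 in the library labelled transgenic. Its highest level was in the Il17a cluster of T cells, at 29.6 CPM (26 UMIs) and 29.9 CPM (34 UMIs), a ratio of 1.011 (0.589 to 1.76). The Arg1 cluster came next among clusters with at least 30 UMIs in 1 library, at 25.0 and 25.1 CPM (33 and 6 UMIs), and there it was 2.80-fold (1.65 to 4.78) the Chil3 level in wild type. B-like cells had 4 and 3 UMIs. Ptger2 had no called difference in T-like cells (0.977, 0.596 to 1.62), where Ptger4 was called higher. In macrophage-like cells neither Ptger2 (1.03, 0.498 to 2.23) nor Ptger4 was called.

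Alox5 was a neutrophil gene in wild type. Neutrophil-like cells held 181 of 231 UMIs, 78.4% (72.5% to 83.5%), and in the library labelled transgenic 30 of 121, 24.8% (17.4% to 33.5%), where macrophage-like cells held 41.3%. Its level in neutrophil-like cells was 71.5 and 90.8 CPM, a ratio of 1.27 (0.833 to 1.88), while these cells numbered 648 and 167. Median-of-ratios scaling put this ratio on the other side of 1, at 0.815. In macrophage-like cells the levels were 11.55 CPM (26 UMIs) and 13.6 CPM (50 UMIs). The Csf2 cluster had 10.4 CPM (5 UMIs) and 20.5 CPM (19 UMIs). B-like cells had 2 and 1 UMIs.

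Alox5ap, the helper of Alox5, was far broader than the enzyme. Its levels fell into a high set and a low set of clusters: S100a9 (3537 and 2030 CPM), Chil3 (2236 and 1410), Siglech (1556 and 1548), Arg1 (1153 and 947), Cd209a (974 and 1025), the low-UMI Zeb2 cluster (810 and 454) and C1q (534 and 327) on one side, and the other clusters at 61.0 CPM or lower. Of Alox5 itself the Chil3 cluster had 6 and 3 UMIs, the Arg1 cluster 1 and 1 and the Siglech cluster 0 and 0, against 7269 and 2612, 1524 and 226, and 182 and 409 UMIs of Alox5ap.

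Between the libraries Alox5ap was lower in several myeloid clusters of the library labelled transgenic. The ratio was 0.574 (0.530 to 0.620) in the S100a9 cluster, 0.630 (0.603 to 0.659) in the Chil3 cluster and 0.612 (0.563 to 0.666) in the C1q cluster. It was 1.05 (0.966 to 1.15) in the Cd209a cluster and 0.995 (0.834 to 1.19) in the Siglech cluster, the finer clusters in which dendritic markers were raised. In macrophage-like cells the call ended when barcodes above the gene-number limit were added (0.739). Neutrophil markers in macrophage-like cells summed to 549 CPM in wild type and 114 CPM in the other library. Without the cells holding 2 or more neutrophil marker genes the ratio was 0.643, and that of Ptgs2 in the same cells was 0.422.

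Ltc4s, which makes leukotriene C4, was with Ptgs1 and Hpgds in macrophages. Macrophage-like cells held 77.9% of its UMIs in wild type and 78.7% in the library labelled transgenic, at 353 UMIs (157 CPM) and 452 UMIs (123 CPM), a ratio of 0.782 (0.679 to 0.901). Of these cells 22.9% and 22.7% held a UMI, and of B-like cells 0.622% and 0.716%. In neutrophil-like cells Ltc4s had 10 UMIs (3.95 CPM) and 17 UMIs (51.4 CPM), and 5 cells held 64.7% of the latter. The macrophage markers given above for this class moved the same way, and their part was not tested.

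Members of 1 route were looked for in the same cells. In the Arg1 cluster of wild type, 82 of the 88 cells with Ptges also had Ptgs2 (93.2%), where the product of the shares gives 80.7. This is close, because nearly all of these cells held Ptgs2. In monocyte-like cells as a whole 79 of 90 did, against a product of 48.2. Ptgs1 and Hpgds shared 55 wild type macrophage-like cells against a product of 40.4, and 93 against 64.3 in the library labelled transgenic. Alox5 and Ltc4s shared 15 against 5.04 and 25 against 10.4. All 136 wild type neutrophil-like cells with Alox5 had Alox5ap, and 22 of 25 in the other library. Cells with more UMIs hold more of every gene, which raises such counts, and this was not corrected for.

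**Figure D4:**
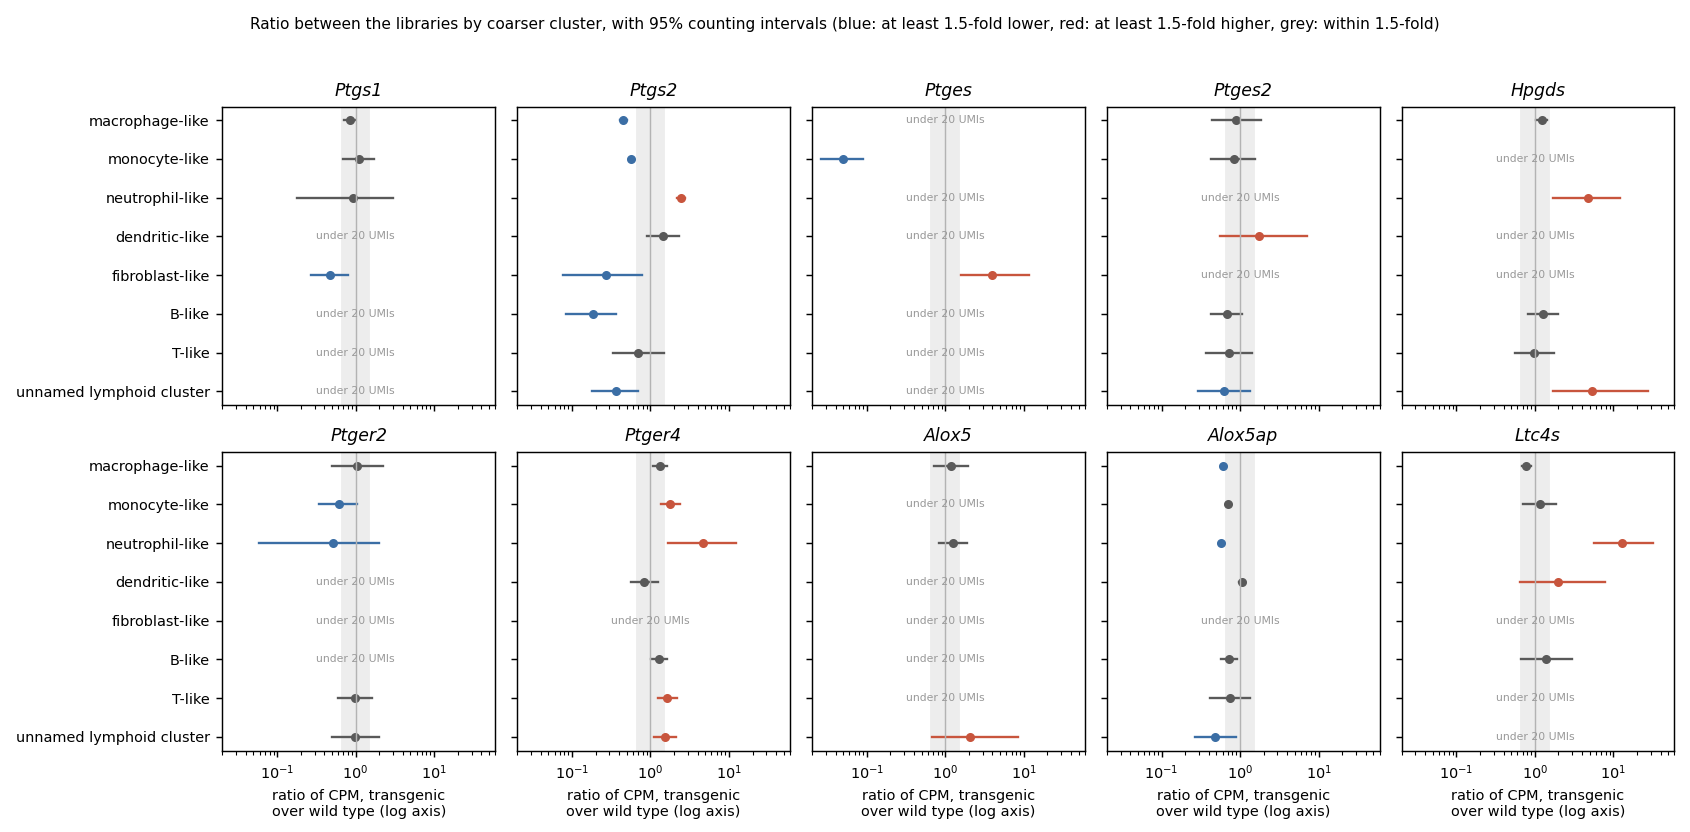
Ratio of CPM in the library labelled transgenic over wild type (log axis) for each gene in 8 coarser clusters, with exact conditional binomial 95% intervals, where blue marks genes at least 1.5-fold lower, red at least 1.5-fold higher and grey those within 1.5-fold, which is the shaded band. Ptgs2 lies at 0.454 for macrophages, 0.567 for monocytes and 2.44 for neutrophils.

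Members called in each class are counted here beside the share of all tested genes called. In macrophage-like cells 9 members had 20 UMIs and 2 were lower (Ptgs2 and Alox5ap) and 0 higher, where 8.52% of all genes were lower and 8.66% higher. Their median log2 ratio was -0.16, against -0.05 over all genes. In monocyte-like cells 3 of 8 were lower (Ptgs2, Ptges and Ptger2, with 9.05% of all genes) and 1 higher (Ptger4, with 14.9%), and the medians were -0.38 and 0.09. Ptger2 rested on 61 and 18 UMIs (0.613, 0.341 to 1.05), and its interval includes 1.

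In neutrophil-like cells 4 of 8 were higher (Ptgs2, Hpgds, Ptger4 and Ltc4s, with 52.1% of all genes) and 2 lower (Alox5ap and Ptger2, with 10.2%). Ptger2 here rested on 30 and 2 UMIs (0.511, 0.0592 to 2.01), and its interval includes 1. Hpgds rested on 13 and 8 UMIs (4.72, 1.70 to 12.3), with 75% of the latter in 5 cells. In the finer S100a9 cluster its 10 and 8 UMIs were too few for a call. The 4 of 8 that were higher are near that background. In T-like cells 1 of 6 was higher (Ptger4, with 8.22% of all genes) and 0 lower (8.27%). In dendritic-like cells 2 of 5 were higher (Ptges2 on 4 and 16 UMIs and Ltc4s on 4 and 18, with 11.5% of all genes) and 0 lower (11.4%), and both intervals include 1. In fibroblast-like cells 2 of 3 were lower (Ptgs1 and Ptgs2, with 21.3%) and 1 higher (Ptges, with 13.5%). In B-like cells 1 of 6 was lower (Ptgs2, with 5.61%) and 0 higher (7.22%). In the unnamed lymphoid cluster 3 of 7 were lower (Ptgs2, Ptges2 and Alox5ap, with 7.31%) and 3 higher (Hpgds, Ptger4 and Alox5, with 10.7%). The intervals of Ptges2 (0.625, 0.294 to 1.36) and Alox5 (2.07, 0.674 to 8.45) include 1. Hpgds there rested on 3 and 33 UMIs (5.35, 1.68 to 27.3). In the finer Csf2, Lef1 and Gzma clusters it had 4 and 7, 1 and 2, and 19 and 51 UMIs. The ratios there were 0.907, 1.67 and 1.16, so the size of the difference depended on the cells taken. The low-UMI cluster had 2 of 7 lower (14.8% of all genes) and 1 higher (13.1%), and the low-UMI cluster with epithelial genes 1 of 3 lower (18.6%) and 0 higher (9.5%).

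Over all deposited cells 4 of the 10 were lower in the library labelled transgenic (Ptgs2, Ptges, Alox5 and Alox5ap, with 7.82% of 14199 genes) and 2 were higher (Hpgds and Ptger4, with 13.6%). Ptgs2 had 307 CPM in wild type and 115 CPM in the other library (0.375, 0.357 to 0.394), Alox5ap 994 and 368 (0.370, 0.360 to 0.380) and Ptges 27.0 and 2.15 (0.0798, 0.0571 to 0.109). Hpgds had 16.0 and 30.4 (1.90, 1.66 to 2.18) and Ptger4 32.5 and 57.0 (1.76, 1.59 to 1.93). Such totals mix level with makeup, so each cluster was also given its wild type share of UMIs, a setting chosen after seeing the data.

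With the makeup of the 15 finer clusters held, Ptgs2 went to 1.20 and Alox5 to 1.23, on the other side of 1. The S100a9 cluster enters these values with ratios of 2.40 for Ptgs2 and 1.23 for Alox5. The median log2 ratio over all genes in that cluster was 0.71, and its part in the crossing was not tested. Ptges went to 0.155 and Alox5ap to 0.636, and both remained lower by more than 1.5-fold. Ptger4 at 1.42 and Hpgds at 1.39 came within 1.5-fold. With the 10 coarser clusters held, Ptgs2 was 0.954 and Alox5 1.26. The order of the members by their ratio therefore depends on whether cells or levels are counted, except that Ptges was lowest in each of these 3 calculations.

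**Figure D5:**
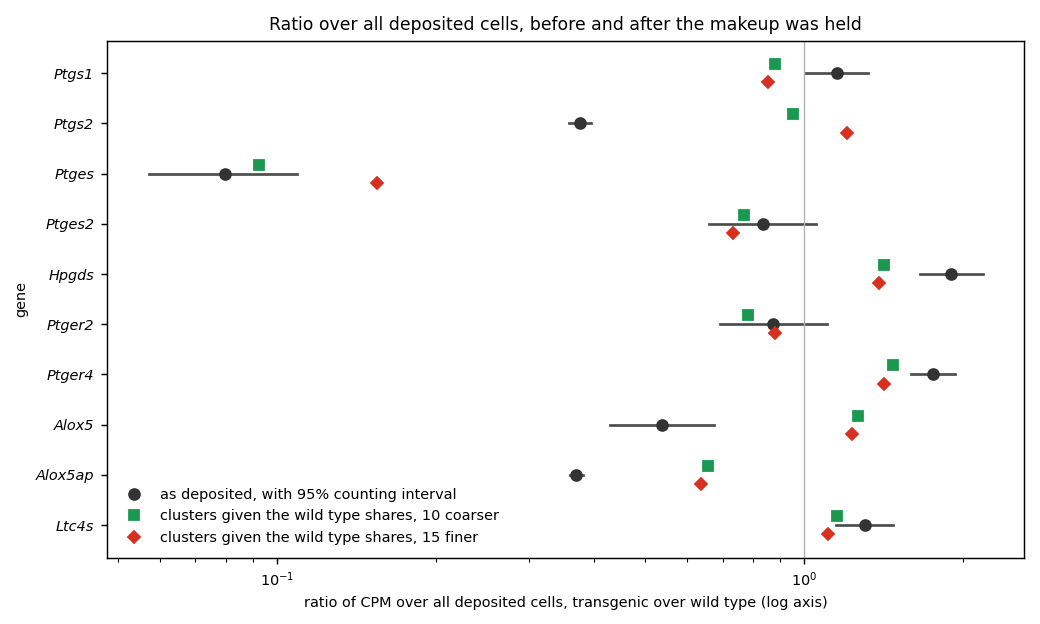
Ratio of CPM over all deposited cells for each gene (log axis), as deposited with its 95% counting interval (dark circles) and after each cluster was given its wild type share of UMIs, for 10 coarser (squares) and 15 finer clusters (diamonds). Ptgs2 moves from 0.375 to 0.954 and 1.20, and Ptges stays lowest at 0.0798, 0.0922 and 0.155.

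A further 36 genes of the pathway were taken from a list of 7 roles, which covers the phospholipases, other synthases, breakdown and transport, other receptors and other leukotriene enzymes. In macrophage-like cells 20 had 20 UMIs, of which 3 were lower and 1 higher, against 8.52% and 8.66% of all genes. The 3 belong to the leukotriene branch. The cysteinyl leukotriene receptor Cysltr1 had 185 UMIs (82.2 CPM) in wild type and 143 UMIs (38.8 CPM) in the other library (0.472, 0.377 to 0.590). The leukotriene B4 receptor Ltb4r1 had 23.5 and 10.0 CPM (0.426, 0.272 to 0.661), and Dpep2, a dipeptidase that cuts leukotriene D4, 16.0 and 7.59 CPM (0.475, 0.279 to 0.801). Cysltr2 was higher on 3 and 24 UMIs (4.89, 1.48 to 25.3).

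In monocyte-like cells 4 of 19 were lower and 1 higher, against 9.05% and 14.9% of all genes. Pla2g4a, the cytosolic phospholipase that frees arachidonic acid, had 205 UMIs (45.6 CPM) in wild type and 50 UMIs (23.1 CPM) in the library labelled transgenic (0.507, 0.364 to 0.693), and Ptgr1, which inactivates leukotriene B4 and prostaglandin intermediates, 24.7 and 8.78 CPM (0.356, 0.206 to 0.582). Abcc4, an exporter of prostaglandins, was at 0.658 and Mgst2 at 0.594, with intervals that include 1. The thromboxane synthase Tbxas1 was higher, at 28.7 and 50.8 CPM (1.77, 1.36 to 2.30). The highest wild type level of Pla2g4a was in the Arg1 cluster, at 93.9 CPM (124 UMIs), close to the Col3a1 cluster at 91.4 CPM (23 UMIs).

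In T-like cells 3 of 12 were lower and 0 higher, against 8.27% and 8.22% of all genes. The largest count was that of Ltb4r1, with 268 UMIs (152 CPM) in wild type and 227 UMIs (85.1 CPM) in the other library (0.558, 0.466 to 0.668). Its highest finer cluster was the Il17a cluster at 292 and 213 CPM, where the difference was within 1.5-fold. Mgst3 (0.613, 0.448 to 0.840) and Cysltr1 (0.659, 0.376 to 1.15) were the others. In dendritic-like cells Lta4h, the leukotriene A4 hydrolase, was lower (95.4 and 58.9 CPM, 0.617, 0.446 to 0.859), as were Ptgr2 (0.650) and Ggt5 (0.619) on fewer counts, and Tbxas1 was higher (2.60, 1.22 to 6.36), so 3 of 14 were lower and 1 higher, against 11.4% and 11.5% of all genes.

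Fibroblast-like cells had 2 of 8 lower, near the 21.3% of all genes, and 0 higher (13.5%): Slco2a1, the prostaglandin uptake carrier, with 43 UMIs (171 CPM) in wild type and 9 UMIs in the other library (0.182, 0.0778 to 0.378), and Mgst3 (0.445). In neutrophil-like cells 4 of 13 were lower and 4 higher, against 10.2% and 52.1% of all genes, so the higher ones were fewer than that background. Ggt1, which cleaves leukotriene C4, had 96 UMIs (37.9 CPM) in wild type and 0 in the library labelled transgenic, where 3 UMIs would be 9.08 CPM, and Abcc1, an exporter of leukotriene C4, 64 and 1 UMIs. Over all deposited cells 6 of 27 were lower and 3 higher, against 7.82% and 13.6% of all genes. Ltb4r1 had the most UMIs of the 6, 1600 and 840 (0.539, 0.496 to 0.587).

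For each member the genes with the most similar profile were found by Pearson r of log2(CPM + 10) over the 15 finer clusters, among 9193 genes. These r are descriptions, since the clusters come from the same 2 libraries and differ in depth. Ptgs2 was most like Emilin2 and Cd14 (r = 0.98 for each) and Osm (0.97). Ptges was most like Nrg1 (0.95), Rhou (0.93) and Rai14 (0.92). Ptgs1 went with Igf1 and Trim47 (0.97 for each) and Axl (0.95), Hpgds with Arhgap19 (0.90), Cd163 (0.88) and Ccl8 (0.85), and Ltc4s with Fcrls and Folr2 (0.94 for each) and Lilra5 (0.91). Alox5 was most like Retnlg (0.88), H2-Q10 (0.87) and Cxcr2 (0.86), and Alox5ap like Skap2 (0.97), Csf2rb (0.96) and Nfam1 (0.96). The nearest genes of the broad members were Aagab (0.90), Zfp217 and Pigs (0.82 for each) for Ptger4, Furin (0.88), Ttc39c (0.87) and Arhgap31 (0.84) for Ptger2, and Ubqln2 (0.91), Zfp771 (0.89) and Nup37 (0.88) for Ptges2.

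The metadata leave out barcodes with 2200 or more genes. Those of them under 5% in mitochondrial and in each kind of immunoglobulin UMIs numbered 1718 in wild type and 1290 in the library labelled transgenic. These are the barcodes called above the gene-number limit here, and they hold many of the members' UMIs. They held 65.6% of the Ptgs1 UMIs of the whole wild type table and 45.5% of those of the other, and 39.2% and 27.9% of the Ptgs2 UMIs. Each such barcode was given to the cluster whose profile made its counts most likely. In those given to macrophage-like cells Ptgs2 had 188 and 141 CPM (0.749, 0.668 to 0.840) and Ptgs1 157 and 98.1 CPM (0.624, 0.546 to 0.713), nearer to 1 for Ptgs2 and farther for Ptgs1 than in the deposited cells. In those given to monocyte-like cells Ptgs2 had 480 and 257 CPM (0.535, 0.464 to 0.615) and Ptges 25.6 and 9.59 CPM (0.374, 0.159 to 0.755). The 77 wild type barcodes given to the Arg1 cluster held 155 Ptges UMIs, and the 4 of the other library 0, while Ptgs2 in these had 1325 and 32 UMIs (0.567, 0.386 to 0.804). In those given to the Chil3 cluster Ptges went the other way than in the deposited cells, on 9 and 8 UMIs (5.19, 1.74 to 15.1). In those given to fibroblast-like cells Ptges had 41 and 51 UMIs (43.6 and 76.8 CPM, 1.76, 1.14 to 2.72).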

How the data were processed

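Live CD45+ colon lamina propria cells were profiled with 10x Genomics 5' chemistry, 1 library per genotype, and the deposited tables hold UMI counts per gene and barcode, per the file headers. Per-cell UMI totals in these count tables exceed those given in the metadata, and the totals of the count tables were used throughout. Cell Ranger 5.0.0, Seurat 4.0 and the mm10 build appear in the submitters' processing notes, without roles. Deposited metadata give cluster numbers and, per the file headers, percent of mitochondrial and immunoglobulin UMIs, and leave out barcodes holding 70.4% and 66.1% of the UMIs: those with 2200 or more genes, or with 5% or more mitochondrial or immunoglobulin UMIs. Coarser clusters were named from marker lists. Counts were summed per library and cluster with Python 3.11.15, numpy 2.4.6, scipy 1.17.1 and pandas 2.3.3. Intervals are exact conditional binomial for ratios, exact Poisson for levels and Clopper-Pearson for shares. The ratio code was tested on simulated data. The named genes are the 10 members, some of the 36 other pathway genes that differ by 1.5-fold, and the 3 genes most like each member among those with at least 200 UMIs. Not every pathway gene called in neutrophil-like cells or over all deposited cells is named. Pathway calls in B-like cells and in the unnamed clusters are not given. The members and lists were chosen with earlier results of these data known. Scrublet (scanpy 1.11.5) called 0 and 2 barcodes as doublets at its automatic threshold and so did not work. The 8% with the highest scores were removed in an alternative. Other alternatives were the scaling, UMI minimum, fold size, cell weight, cell depth, cluster resolution and added barcodes.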

Additional observations from a re-analysis of the deposited data

Results flagged for a closer look

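Ptgs2 had opposite directions in different classes. The ratio of the library labelled transgenic over wild type was 2.44 in neutrophil-like cells against 0.454 in macrophage-like, 0.567 in monocyte-like, 0.185 in B-like and 0.271 in fibroblast-like cells. Ptges had a ratio of 3.90 in fibroblast-like cells against 0.0504 in monocyte-like cells. With 1 library per genotype, neither of these differences between classes was tested.

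Outside the deposited cells, Ptger4 was at 41.5 CPM in barcodes above the gene-number limit of the library labelled transgenic and at 27.7 CPM in those of wild type, a ratio of 1.49 (1.33 to 1.68).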

How the results depend on the processing

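No paired analysis was possible because each genotype is 1 library. The counts of members called were 2 in macrophage-like, 4 in monocyte-like, 6 in neutrophil-like, 2 in dendritic-like and 1 in T-like cells. At a 2-fold size they were 1 in macrophage-like, 1 in monocyte-like, 0 in dendritic-like and 0 in T-like cells. At a minimum of 50 UMIs they were 2 in neutrophil-like and 0 in dendritic-like cells, and at a minimum of 1 UMI 6 in dendritic-like and 4 in T-like cells. The largest finer cluster gave 4 in dendritic-like and 2 in T-like cells, the mean of per-cell CPM 2 and the barcodes above the gene-number limit 2 in T-like cells, and removal of the highest doublet scores 3 in neutrophil-like cells. Settings chosen after seeing the data gave 2 in monocyte-like cells without the finer Arg1 cluster and 1 in dendritic-like cells without the finer Siglech cluster. The share of all genes called in each class at the main setting is given above. Counts at the other settings stand without that share, and not every class is listed at each. They show only how the listed counts moved. Of 45 member ratios, 7 lay on the other side of 1 with per-cell means, 7 with the added barcodes, 5 in the largest finer cluster, 1 under median-of-ratios scaling, 1 without the highest doublet scores and 0 in cells of at least 1000 UMIs. Among them Ptgs2 in dendritic-like cells was 0.536 in the largest finer cluster, which also carries mast cell genes, and 0.657 with the added barcodes. The called ratios that crossed 1 were Ptges2 in dendritic-like cells with the added barcodes (0.980) and, over all deposited cells with the wild type makeup, Ptgs2 (1.20 by finer clusters) and Alox5 (1.26 by coarser and 1.23 by finer clusters). The cause was not tested for the others, and the makeup settings act on cell shares by construction. Of the 45 ratios, 41 stayed within their counting interval under median-of-ratios scaling, 42 with per-cell means, 45 in cells of at least 1000 UMIs, 43 without the highest doublet scores, 41 in the largest finer cluster and 36 with the added barcodes. Depth limits Ptges most, with 20 UMIs in 3 of the 10 coarser clusters, then Ptgs1 and Alox5 with 4 each. With 1 library a genotype, batch and genotype cannot be told apart.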

Other observations

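Mast cells are a known source of prostaglandin D2 and leukotriene C4, and mast cell genes (Mcpt1, Mcpt2, Cpa3) lead the unnamed low-UMI cluster. Barcodes with at least 4 of 11 mast cell or basophil markers, a rule chosen after values were seen, numbered 9 in the wild type library and 20 in the library labelled transgenic. The rule does not tell mast cells from basophils. These barcodes held 10 and 15 UMIs of Alox5 (136 and 249.9 CPM), against 71.5 and 90.8 CPM in neutrophil-like cells. Of Hpgds they held 5 and 9 UMIs (68.2 and 149.9 CPM), in 3 and 5 barcodes. Alox5ap had 63 and 87 UMIs (859.6 and 1449 CPM), Ltc4s 1 and 1 and Ptges 0 and 0.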
